A study of Mus musculus with 6 samples.

Results

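The AP-1 transcription factors are the products of the Fos genes (Fos, Fosb, Fosl1, Fosl2) and the Jun genes (Jun, Junb, Jund), 7 genes in all. They were taken by symbol from the deposited tables, in which all 7 had a value other than 0, among 26562 of 47593 symbols that had one. Primary hippocampal neurons of WT mice were given microglial apoE particles (3 samples) or astrocytic apoE particles (3 samples), both at 6 µg/mL from culture day 10 and for 24 h. ApoE, apolipoprotein E, carries lipids between brain cells, and the study asked how particles of each cellular origin act on the neuronal transcriptome. Both groups carried apoE particles, so every difference below is microglial against astrocytic apoE. Neurons without particles were not analysed here. Nothing in the labels ties the samples to separate cultures, so p-values cover only the spread between the samples as labelled, and that spread may be technical.

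AP-1 is a dimer. A Jun protein pairs with another Jun protein or, more stably, with a Fos protein through a leucine zipper, and the neighbouring basic region binds the DNA element TGACTCA or the related cAMP response element TGACGTCA. Fos, Fosb, Junb and, to a lesser degree, Jun are immediate early genes: in neurons their transcription is switched on within minutes by calcium entry, growth factors or stress, through the serum response factor and CREB, and their mRNAs are short-lived. Jund is expressed more steadily. Jun is also raised in injured and dying neurons, where the kinase JNK phosphorylates its protein, and its promoter is bound by Jun dimers themselves.

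With microglial apoE, 4 of the 7 genes rose, Fosb the most (1.23-fold), then Fos (1.20-fold), Junb (1.17-fold) and Fosl2 (1.13-fold). Jun went the other way and fell (log2 fold change -0.14). Fosl1 and Jund did not pass the test. The test was limma across 15055 genes with sufficient signal, a group to which all 7 belonged, and a gene was called at a Benjamini-Hochberg adjusted p under 0.05. Of all genes tested, 24.9% were called, 13.0% higher and 11.8% lower. The median log2 fold change of the 7 was 0.17, against -0.00057 over all genes tested. The scale of the libraries moves the split of calls over all genes, which is 1962 higher and 1780 lower (52.4% higher) as deposited, 1478 and 2765 (34.8%) with every library centred on its median, and 2516 and 1318 (65.6%) with equal summed linear values. The direction of all 7 genes was the same under both scalings.

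**Figure D1:**
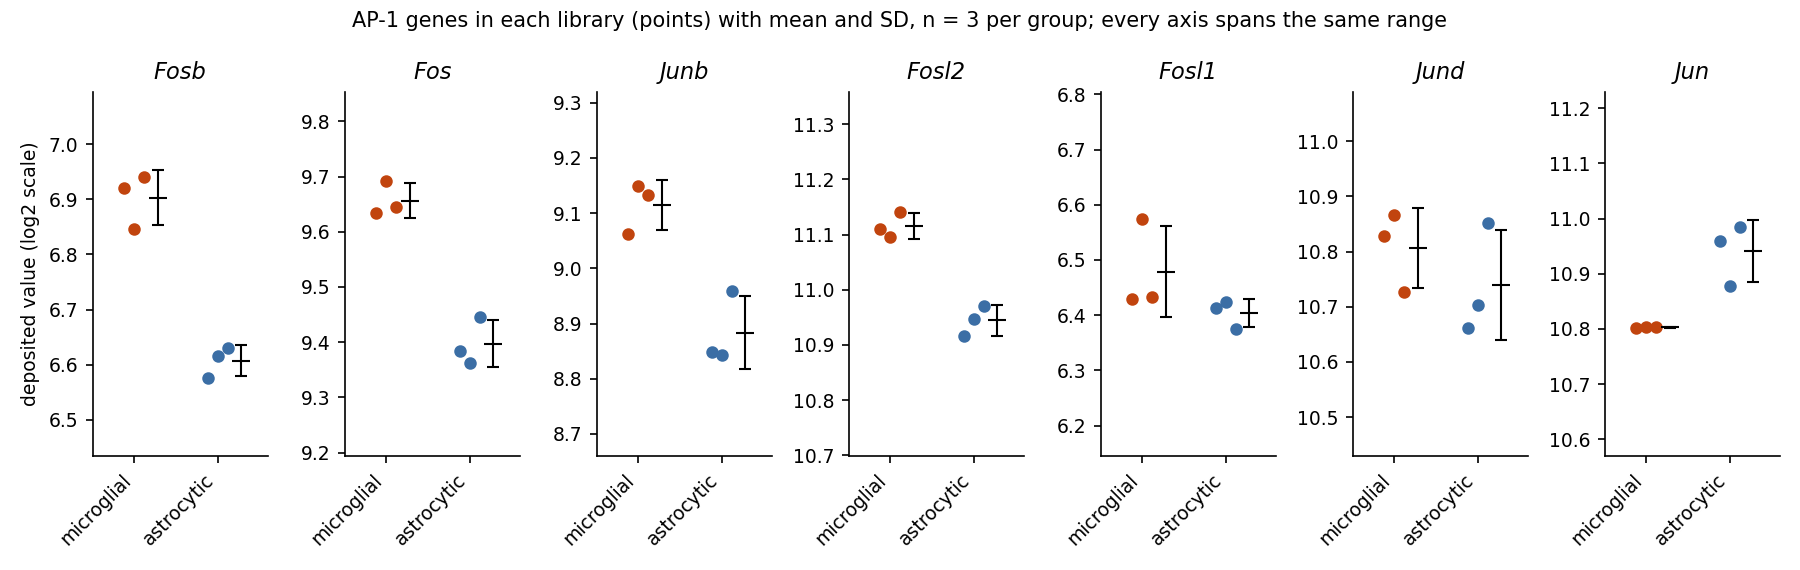
Deposited value (log2 scale) of each AP-1 gene in every library, microglial apoE (orange) and astrocytic apoE (blue), with the mean and SD of 3 libraries beside the points. Every panel spans the same range of log2 units: the microglial points of Fosb, Fos, Junb and Fosl2 lie above the astrocytic ones, those of Jun below (mean 10.80 against 10.94), and those of Jund overlap.

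Among the Fos genes, Fosb (chromosome 7, 19302696 to 19310051, GRCm38) had the highest fold change. Its protein, and the stable truncated form DeltaFosB made from the same gene by splicing, dimerises with Jun proteins, and the values here do not separate the forms. Fosb had log2 values of 6.92, 6.85 and 6.94 with microglial apoE, against 6.58, 6.62 and 6.63 with astrocytic apoE. The groups did not overlap, and the lowest microglial library stood 0.22 above the highest astrocytic one. The log2 fold change was 0.30 ± 0.029 (SE, limma adjusted p = 1.4e-08, 3 libraries per group).

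Fos itself (chromosome 12, 85473890 to 85477273), the founding member and the usual marker of recent neuronal activity, had values of 9.63, 9.69 and 9.64 with microglial apoE, against 9.38, 9.36 and 9.45 with astrocytic apoE. All 3 microglial libraries were above all 3 astrocytic ones. The log2 fold change was 0.26 ± 0.031 (SE, limma adjusted p = 5.4e-07). Fosl2 (chromosome 5, 32135801 to 32157842) encodes Fra-2, a Fos protein without the strong activation domain of Fos, and is known as a later and longer-lasting member. It stood at 11.11, 11.10 and 11.14 with microglial apoE, against 10.92, 10.95 and 10.97 with astrocytic apoE, again without overlap. Its log2 fold change was 0.17 ± 0.028 (SE, limma adjusted p = 4.4e-05).

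Fosl1 (chromosome 19, 5447547 to 5455946), which encodes Fra-1, had values of 6.43, 6.57 and 6.43 with microglial apoE, against 6.41, 6.42 and 6.37 with astrocytic apoE. The groups did not overlap, but the lowest microglial library lay only 0.0055 above the highest astrocytic one. The log2 fold change of 0.08 (95% interval 0.0068 to 0.14) did not pass (limma adjusted p = 0.10). It passed with the summed linear values made equal (adjusted p = 0.045, over a range of 0.045 to 0.53 in all alternatives), and was 0.027 without microglial replicate 2. Fosl1 also shares 2767 bases with Ccdc85b on the opposite strand, measured over whole genes with their introns. Only part of that stretch can be exon of Fosl1, which has 2033 bases of exon. No source used here gives the strand setting of the counting, so reads of that stretch cannot be assigned, and Ccdc85b did not pass either (log2 fold change 0.09, limma adjusted p = 0.12).

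Among the Jun genes, Junb (chromosome 8, 84974484 to 84978718) was the riser. JunB is a weaker activator than Jun on simple AP-1 sites and can oppose it. Junb had values of 9.06, 9.15 and 9.13 with microglial apoE, against 8.85, 8.84 and 8.96 with astrocytic apoE. The groups did not overlap, and astrocytic replicate 3 was the nearest to the microglial libraries. The log2 fold change was 0.23 ± 0.035 (SE, limma adjusted p = 1.6e-05). Junb overlaps Prdx2, a peroxiredoxin gene on the opposite strand, by 351 bases, measured over whole genes with their introns. Its value is uncertain in so far as that stretch is exon. Prdx2 differed little between the groups, at 12.36 ± 0.05 with microglial apoE and 12.34 ± 0.03 with astrocytic apoE (SD, n = 3), a log2 fold change of 0.02 (limma adjusted p = 0.60).

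Jun (chromosome 4, 95049034 to 95052222) encodes c-Jun, the strongest activator among the Jun proteins and the main target of JNK. It had values of 10.802, 10.804 and 10.803 with microglial apoE, against 10.96, 10.88 and 10.98 with astrocytic apoE. All 3 microglial libraries were below all 3 astrocytic ones. Jun was 1.10-fold lower with microglial apoE (log2 fold change -0.14 ± 0.030 SE, limma adjusted p = 0.0011). The SD of the microglial libraries was 0.00085, under the 0.033 that counting alone would give if the linear value were a read count. The antisense gene Junos, which overlaps Jun by 689 bases, stood near 2.93 with microglial and 2.94 with astrocytic apoE, below the level tested.

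Jund (chromosome 8, 70698949 to 70700616) showed no separation. Its values were 10.83, 10.87 and 10.73 with microglial apoE, against 10.66, 10.70 and 10.85 with astrocytic apoE, so that the ranges overlapped. The log2 fold change was 0.07 with a 95% interval of -0.044 to 0.18 (limma adjusted p = 0.37), which includes the change of Fosl2 but not that of Fos, Fosb or Junb. Without astrocytic replicate 3, the library with the highest astrocytic value, Jund passed (0.12, adjusted p = 0.0083, over a range of 0.0083 to 0.73 in all alternatives). That library was also the highest of its group for Fos, Fosb, Fosl2, Jun and Junb. Jund overlaps the antisense gene Gm11175 by 919 bases on the opposite strand and is uncertain to that extent. Gm11175 was listed at 0 in all libraries.

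**Figure D2:**
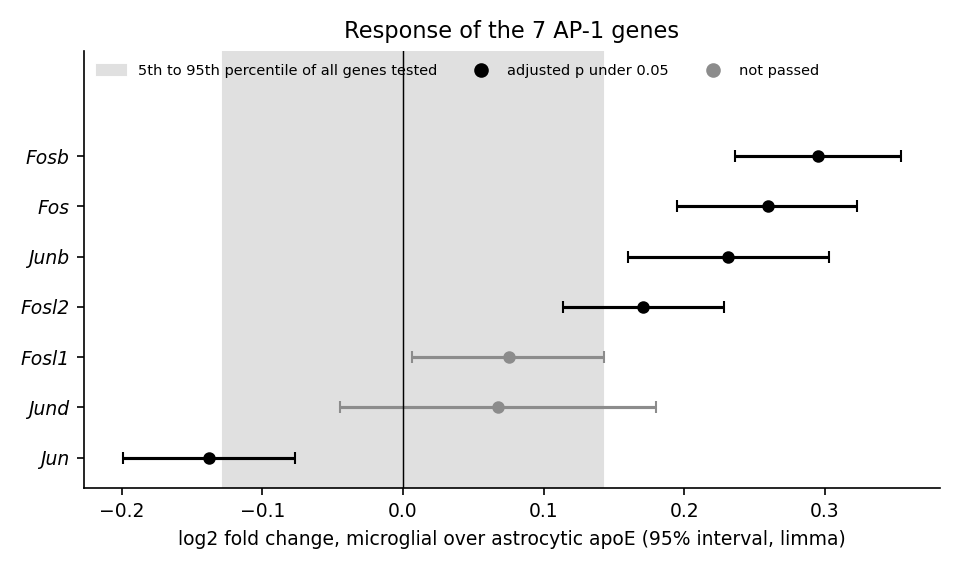
Log2 fold change of each AP-1 gene, microglial over astrocytic apoE, with its 95% interval from limma, on the range from the 5th to the 95th percentile of all genes tested (grey, -0.13 to 0.14). Fosb, Fos, Junb and Fosl2 lie above that range and Jun (-0.14) just below it, while Fosl1 (0.08) and Jund (0.07) lie inside it.

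Over the 7 genes, 6 had groups that did not overlap, 5 of them higher with microglial apoE and 1 lower. The same held for 38.9% of all genes tested, 20.1% higher and 18.8% lower. For each of the 6 an exact two-sided permutation test of the 3 against 3 libraries gave p = 0.10, the smallest that this design allows, and Jund gave an exact p = 0.40. The changes were small in absolute size but large among these data: the size of the Fosb change was at the 98.0th percentile of all genes tested, that of Fos at the 97.5th, Junb at the 96.8th, Fosl2 at the 93.9th and Jun at the 90.5th. The deposited values have the properties of a regularized logarithm, which pulls weakly expressed genes towards their mean. On that reading the fold changes of Fosb and Fosl1, the weakest members, are understated, and so are the SDs. With microglial apoE the SD of Fosb was 0.050, where counting alone would give 0.14.

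Because Jun and its partners moved in opposite directions, the differences between Jun and each of Fos, Junb and Fosl2 changed more than any 1 member did. The log2 value of Fos minus that of Jun was -1.15 ± 0.03 with microglial and -1.54 ± 0.03 with astrocytic apoE (SD, n = 3), a change of 0.40. Junb minus Jun was -1.69 ± 0.05 with microglial and -2.06 ± 0.05 with astrocytic apoE, a change of 0.37. Fosl2 minus Jun was 0.31 ± 0.02 with microglial and 0.0042 ± 0.06 with astrocytic apoE. These differences do not depend on the scale of a library, since both genes are read from the same one. None of the 3 overlapped between the groups, which follows from the members' own values and adds no support. Junb minus Jund changed by less, at -1.69 ± 0.09 with microglial and -1.86 ± 0.04 with astrocytic apoE, a change of 0.16. All 4 differences were set up after the members' values were known and carry no test.

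Levels of different genes can be compared only per length. On the linear scale (2 to the power of the deposited value) and per kilobase of annotated exon, Jund was the most abundant member, at 1075 ± 53.3 with microglial and 1026 ± 72.0 with astrocytic apoE (SD, n = 3). Jun followed, at 560.2 ± 0.33 with microglial and 617 ± 23.7 with astrocytic apoE, and then Fos, at 343 ± 7.46 with microglial and 287 ± 8.63 with astrocytic apoE. Junb (241 ± 7.65 with microglial, 205 ± 9.45 with astrocytic apoE) and Fosl2 (229 ± 3.72 with microglial, 204 ± 3.93 with astrocytic apoE) came next. Junb was above Fosl2 in all 3 microglial libraries, by more than either SD in the mean, and with astrocytic apoE the 2 did not differ beyond their spread. Fosl1 (43.9 ± 2.55 with microglial, 41.7 ± 0.74 with astrocytic apoE) and Fosb (19.2 ± 0.65 with microglial, 15.6 ± 0.30 with astrocytic apoE) stood under 50, far below every other member. The order depends on the length used: per kilobase of the longest transcript, Fosl2 averaged 339 and Junb 307 with microglial apoE, so that Fosl2 came before Junb.

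**Figure D3:**
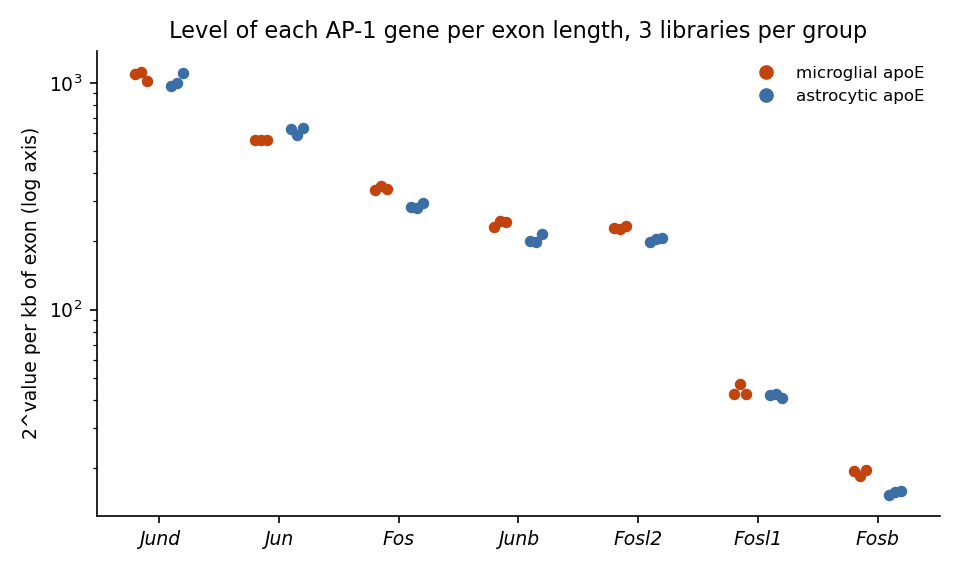
Linear value per kilobase of annotated exon (log axis) of each AP-1 gene in each library, microglial apoE (orange) left of astrocytic apoE (blue). Jund and Jun stand highest, Fos, Junb and Fosl2 lie between 199.5 and 352, and Fosl1 and Fosb stand under 50.

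Summed per kilobase, the 4 Fos genes gave 628, 643 and 636 with microglial apoE, against 541, 542 and 560.5 with astrocytic apoE. The 3 Jun genes gave 1882.5, 1926 and 1820 with microglial apoE, against 1796, 1790 and 1959 with astrocytic apoE. The sum of the Fos genes thus separated the groups, as each of the 4 genes did alone, and that of the Jun genes did not. The Fos genes made up 25.3% ± 0.50 of the summed level of all 7 with microglial apoE and 22.9% ± 0.55 with astrocytic apoE (SD, n = 3). Within that sum the share of Jun was 22.3% ± 0.50 with microglial and 25.7% ± 0.85 with astrocytic apoE, while that of Jund was 42.8% in both groups. These shares are of transcript levels and say nothing of protein or of dimers.

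The promoters of Fos, Fosb and Junb, which rose and hold a core of the cAMP response element, and that of Jun, which fell, are shown because elements that drive immediate early induction lie there. RefSeq's promoter table (GRCm38.p6, 250 bases before to 50 after the start) matched 6 of the 7 genes, all but Fosl1. The sequences below end at the base before the start, except that of Fosb, which is a 30-base stretch around its element. Capitals mark the core TGACG of the cAMP response element, and in Jun the element TGACATCA, the AP-1-like site through which Jun dimers are known to act on the gene.
Fos, chr12:85473740-85473889, plus strand: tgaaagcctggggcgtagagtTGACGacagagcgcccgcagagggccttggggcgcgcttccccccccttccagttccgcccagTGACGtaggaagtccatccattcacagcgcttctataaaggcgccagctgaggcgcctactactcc
Fosb, chr7:19310088-19310117, minus strand: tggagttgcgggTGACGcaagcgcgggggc
Junb, chr8:84978749-84978898, minus strand: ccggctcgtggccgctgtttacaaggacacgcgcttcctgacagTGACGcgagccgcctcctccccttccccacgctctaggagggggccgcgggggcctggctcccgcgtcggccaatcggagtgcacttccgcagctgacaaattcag
Jun, chr4:95052223-95052372, minus strand: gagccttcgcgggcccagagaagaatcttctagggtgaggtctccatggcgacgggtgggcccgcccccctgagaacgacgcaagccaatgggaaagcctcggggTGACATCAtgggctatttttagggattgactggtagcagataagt

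Both strands of the 6 windows were searched for the core TGACG, for the full element TGACGTCA that contains it, for the AP-1 site TGACTCA and for the Jun promoter element TGACATCA. TGACG was found in Fos at 129 and 66 bases before the start, in Fosb at 60 and in Junb at 106. These are 3 of the 4 genes that rose, and the window of Fosl2 held none. Whether the core bears on any of the changes was not tested. Distances are from the RefSeq start, which for Fosb and Junb is not the gene end given above from GENCODE. In Junb the RefSeq start lies upstream of that end (84978718), and the letters TATAAA begin at base 1 after it. The core or its complement is in 20.8% of all 32851 windows of the table. TGACATCA was found in Jun at 45 bases before the start and in 3.62% of all windows. The full element (1.79% of all windows) and the AP-1 site (5.20%) were in none of the 6, nor was the CArG box that binds serum response factor (1.63%). A match is a description of letters, and the lack of one says only that these letters are not in this window.

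Other bZIP genes, listed here as partners, encode proteins with the same type of zipper. Some of them pair mainly with proteins other than Fos or Jun. Of 13 tested, of 15 listed, 8 rose and 0 fell in limma (9 and 0 at an unadjusted p under 0.05), with a median of 0.13 on the log2 scale. The share called was 61.5%, against 24.9% of all genes tested. This list and those below were chosen with earlier results of these data known, so their shares carry no test. Nfe2l2 encodes NRF2, the activator of antioxidant genes, and stood at 11.00 ± 0.02 with microglial and 10.64 ± 0.02 with astrocytic apoE (SD, n = 3), a log2 fold change of 0.36 (limma adjusted p = 1.6e-10). Atf3, a stress-induced partner of Jun, stood at 9.08 ± 0.07 with microglial and 8.73 ± 0.04 with astrocytic apoE, a log2 fold change of 0.36 (limma adjusted p = 1.4e-08). Atf4 (0.24) and Ddit3 (0.19), transcription factors of the integrated stress response, rose as well. Atf2, the classic partner of Jun on TGACATCA, did not pass (0.05, limma adjusted p = 0.21), and Batf and Batf2 were below the level tested.

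**Figure D4:**
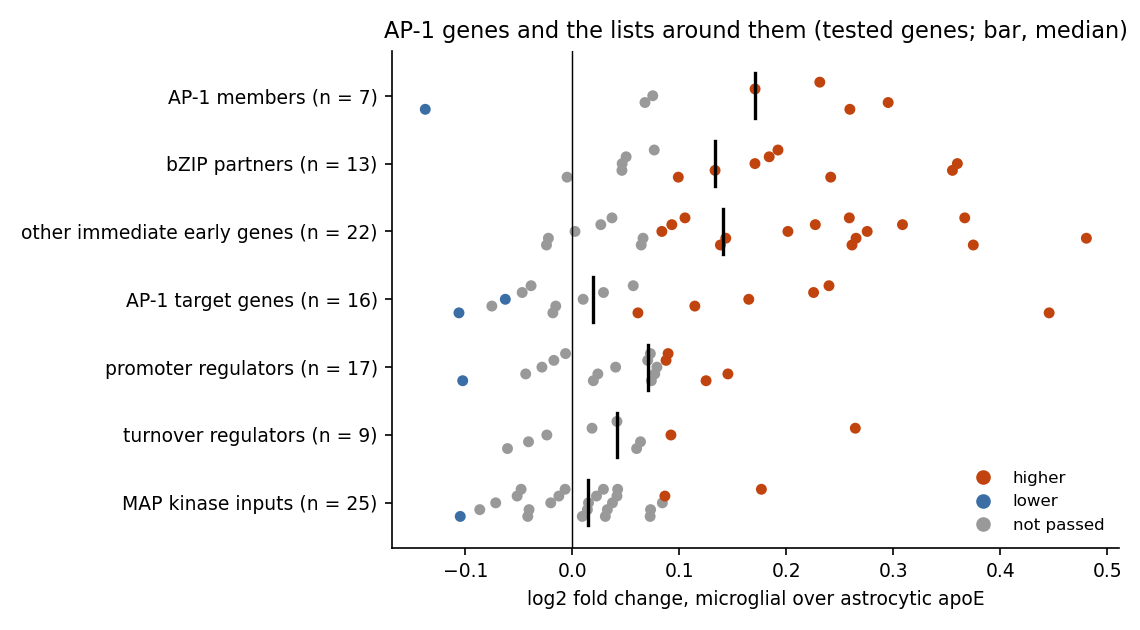
Log2 fold change of every tested gene of the 7 AP-1 members and of each list around them, microglial over astrocytic apoE. Orange points rose, blue points fell, grey points did not pass, and the bar is the median of the list: 0.17 for the AP-1 members, 0.13 for the bZIP genes listed as partners and 0.14 for the other immediate early genes.

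The MAP kinase cascades that act on AP-1 changed little at the level of mRNA. Of 25 tested genes 2 rose and 1 fell (median log2 fold change 0.015, and -0.0034 with median centring). That is 12% called, against 24.9% of all genes tested. The ERK kinase Map2k1 rose, at 10.65 ± 0.03 with microglial and 10.47 ± 0.02 with astrocytic apoE (SD, n = 3, log2 fold change 0.18, limma adjusted p = 4.0e-05). The p38 kinase gene Mapk14 rose by less (0.09, limma adjusted p = 0.032). Mapk8, which encodes JNK1, fell, at 11.99 ± 0.03 with microglial and 12.10 ± 0.05 with astrocytic apoE (log2 fold change -0.10, limma adjusted p = 0.0083). The call of Mapk8 was lost without astrocytic replicate 1 (adjusted p = 0.062) or astrocytic replicate 2 (adjusted p = 0.071), and that of Mapk14 with no filter on low values, with median centring and without any 1 of 4 libraries. The number that rose was 1 without astrocytic replicate 2 or microglial replicate 1, and the number that fell was 2 without replicate 3 of either group. Phosphorylation, through which these kinases act, is not measured by RNA.

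Of 17 factors that act on the Fos and Jun promoters 4 rose and 1 fell, with a median of 0.070. The share called was 29.4%, close to the 24.9% of all genes tested. Those that rose were the serum response factor partners Elk4 (0.15, limma adjusted p = 7.0e-04) and Mkl1 (0.09, limma adjusted p = 0.026), the acetyltransferase gene Crebbp (0.12, limma adjusted p = 0.018) and the CREB coactivator gene Crtc2 (0.09, limma adjusted p = 0.029), which was named after its value was seen and whose call was lost with no filter, with median centring and without any 1 library but astrocytic replicate 3. Mef2c, a neuronal transcription factor, fell (-0.10, limma adjusted p = 0.0074). Creb1 (-0.03, limma adjusted p = 0.55) and Srf (0.07, limma adjusted p = 0.077) did not pass, but Srf passed with equal summed linear values (adjusted p = 0.039) and without astrocytic replicate 3 (adjusted p = 0.048). The number that rose was 1 without astrocytic replicate 1 or 2 or microglial replicate 1 or 3 and 7 without astrocytic replicate 3, and the number that fell was 0 without astrocytic replicate 2 and 2 without astrocytic replicate 3. The calls of Crebbp and Mkl1 were lost without any 1 of those first 4 libraries and that of Mef2c without astrocytic replicate 2. The call of Crebbp was also lost without limma's trend and robust options and that of Mkl1 with no filter or with median centring, and the median was 0.044 without microglial replicate 3.

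Of 9 tested regulators of the decay of AP-1 mRNAs or the turnover of AP-1 proteins, 2 rose and 0 fell in limma (2 and 1 at an unadjusted p under 0.05), with a median of 0.042. With 22.2% called, the list was near the 24.9% of all genes tested. Zfp36l2 rose by 0.26 ± 0.040 (SE, limma adjusted p = 4.7e-05) and Zfp36, which encodes tristetraprolin, by 0.09 ± 0.024 (SE, limma adjusted p = 0.0062). Proteins of this family bind AU-rich elements and shorten the life of immediate early mRNAs. Fbxw7, the ubiquitin ligase subunit that marks Jun for degradation, did not pass (-0.06, limma adjusted p = 0.13), except without astrocytic replicate 3 (adjusted p = 0.040) and, narrowly, with median centring. The median of the 9 was 0.020 without microglial replicate 1 or 3 and 0.082 without microglial replicate 2, and 1 gene fell without astrocytic replicate 3.

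Genes known from other settings as AP-1 targets went both ways. Of 25 listed, 24 had signal and 16 were tested, of which 6 rose and 2 fell (median 0.019). Thus 50% were called, against 24.9% of all genes tested, in a list chosen with earlier results of these data known. Hbegf, an epidermal growth factor family ligand, had values of 9.64, 9.65 and 9.65 with microglial apoE, against 9.22, 9.17 and 9.22 with astrocytic apoE (log2 fold change 0.45 ± 0.029 SE, limma adjusted p = 9.8e-12). The cyclin gene Ccnd1 (0.24), the enkephalin precursor gene Penk (0.23) and the chemokine gene Ccl2 (0.16) rose, and so did the adhesion receptor gene Cd44 (0.11). Bcl2l11, which encodes the death protein BIM and is a target of Jun in neurons deprived of trophic support, fell (-0.11, limma adjusted p = 0.0091), and so did the dynorphin precursor gene Pdyn (-0.06, limma adjusted p = 0.040). Cd44, Bcl2l11 and Pdyn were named after their values were seen. The call of Cd44 was lost without astrocytic replicate 1 or microglial replicate 3, that of Bcl2l11 without astrocytic replicate 2 or microglial replicate 1, and that of Pdyn under 9 of 12 alternatives, the replicate block among them (adjusted p = 0.058). The matrix metalloproteinases Mmp3, Mmp10 and Mmp13, Il6, Plau, Plaur, Gal and Th did not reach the level tested in 3 libraries. None had a value over 3.334 in any library, and Sprr1a was listed at 0. The number that fell was 0 without astrocytic replicate 2 or microglial replicate 1 and 1 without replicate 3 of either group, and the median was 0.012 without astrocytic replicate 1 and 0.031 without astrocytic replicate 3.

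Of 22 immediate early genes outside the AP-1 family 15 rose and 0 fell in limma (16 and 0 at an unadjusted p under 0.05), with a median of 0.14. The share called was 68.2%, against 24.9% of all genes tested. Since the list was chosen with earlier results of these data known, that difference carries no test. Nr4a1 led, at 9.52 ± 0.02 with microglial and 9.04 ± 0.04 with astrocytic apoE (SD, n = 3, log2 fold change 0.48, limma adjusted p = 5.0e-12), and Ier3 (0.37), Cyr61 (0.37) and Egr1 (0.31) also rose.

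The 2 tested genes most like each member over the 6 libraries were found by Pearson's r of the values, to which both the difference between the groups and the spread within them contribute. For Fos they were Myd88 (r = 0.9996) and Lrrc59 (r = 0.9991), for Fosb Parva (r = 0.9992) and Fndc3a (r = 0.9987), for Fosl2 Setd8 (r = 0.997) and Plagl2 (r = 0.996), and for Junb Cmtr1 (r = 0.9991) and Mvp (r = 0.998). Jun was most like Serpina3h (r = 0.9986), a gene with near-identical relatives, and Ptpru (r = 0.991). Fosl1 was most like Noxred1 (r = 0.994) and Tm2d1 (r = 0.990), and Jund most like Nubp1 (r = 0.993) and Macrod1 (r = 0.987). Among the 15055 genes tested, the number with r over 0.95 was 819 for Fos, 639 for Fosl2, 564 for Fosb, 522 for Junb and 133 for Jun, but 56 for Jund and 28 for Fosl1.

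AP-1 genes are expressed by glia as well as by neurons, and the cultures held both. Neuronal markers were abundant, with 10 of 10 detected and a summed linear value of 72691 to 74206 per library with microglial and 74254 to 75631 with astrocytic apoE, and 2 of them rose while 4 fell. The 10 astrocyte markers summed to 61221 to 61784.5 with microglial and 72560 to 73761 with astrocytic apoE, and 8 of 9 tested fell while 1 rose. Markers of dividing cells summed to 1576 to 1602 with microglial and 2451 to 2527 with astrocytic apoE, and 10 of 10 fell. The part of these cells in the AP-1 values was not tested, and in bulk RNA fewer cells of a type and less RNA per cell cannot be told apart. The 12 microglial markers summed to only 591 to 592.5 with microglial and 560.0 to 579.5 with astrocytic apoE, 0 of 9 tested passed in limma (3 higher and 0 lower at an unadjusted p under 0.05), and Tmem119, P2ry12 and Trem2 were below the level tested. Of the oligodendrocyte lineage markers 1 of 9 tested rose and 3 fell (summed 6610 to 6774 with microglial, 6504 to 6808 with astrocytic apoE). Among the fibroblast markers 2 of 5 tested rose and 1 fell (811 to 832 with microglial, 858 to 882 with astrocytic apoE). The 1 that fell, Pdgfra (log2 fold change -0.38), is in the oligodendrocyte lineage list too and is counted in both. Col1a1 (0.21) and Col1a2 (0.08) rose. The endothelial and mural markers summed to 1335 to 1350.1 with microglial and 1165 to 1225 with astrocytic apoE. Only the mural genes Acta2, Pdgfrb and Rgs5 were tested, and of these 3 only Acta2 rose (0.21). The endothelial markers Pecam1, Cldn5, Cdh5, Flt1 and Tek were below the level tested.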

How the data were processed

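Total RNA of 6 samples was sequenced on a DNBSEQ platform, per the labels' protocols. The authors deposited a single log2 value per gene symbol and library, without headers. FastQC, HISAT2, featureCounts and DESeq2 on build GRCm38 appear in the submitters' processing notes, without roles. Versions, annotation and the strand setting: not given in the sources used here. That the values are a regularized logarithm is inferred: 21031 symbols stood at 0 in all libraries and none in only some. Read depth is unknown, and the sum of linear values, 18060473 to 18337624 per library, is set by the transformation.

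Values were tested as deposited with limma 3.58.1 (trend and robust, R 4.3.3), without covariates, on genes reaching the log2 of 10 in at least 3 libraries. Errors are limma's SE or the SD over 3 samples. Named by rule were the 7 members, up to 4 called genes per list with the smallest p, and the 2 most alike per member. Named outside that rule were Atf2, Creb1, Srf, Fbxw7, Crtc2, Cd44, Bcl2l11 and Pdyn, the overlapping genes and some genes not tested. Some genes counted in the lists are not reported here by name. Members and lists were chosen with earlier results of these data known. Gene coordinates and exon lengths are from GENCODE M21 (GRCm38) and promoter coordinates from the RefSeq table, all 1-based. The fit was tested on simulated data. Figures were drawn in Python 3.11.15 with matplotlib 3.10.9.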

Additional observations from a re-analysis of the deposited data

How the results depend on the processing

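Read depth is unknown, and SDs of genes at low values are shrunken by the transformation, which limits Fosb and Fosl1 most. Overlapping genes on the other strand limit Junb and Fosl1, and Jun and Jund have such overlaps too. The alternatives were a filter at a linear value of 50 or none, median centring, equal summed linear values, limma without trend and robust options, a replicate block, and leaving out each library.

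The calls and directions of Fos, Fosb, Fosl2, Junb and Jun were the same in all of them. Fosl1 passed with equal sums (0.089) and Jund without astrocytic replicate 3 (leaving out 1 library, 0.029 to 0.12). Same-numbered samples did not deviate together (correlations of 0.039, -0.12 and -0.19), and the labels do not say that a number marks a shared culture. With the replicate block the log2 fold change was 0.26 for Fos, 0.30 for Fosb, 0.17 for Fosl2, 0.23 for Junb and -0.14 for Jun, and the number of AP-1 target genes that fell was 1. In deviations from the group mean, microglial library 1 correlated most with astrocytic library 1, but only at 0.039. Microglial libraries 2 and 3 correlated most with an astrocytic library of another number.

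Median centring shifted all log2 fold changes by -0.018 and equal sums by 0.014. Over all genes, centring gave 2765 lower. With centring the medians were 0.11 for bZIP partners, -0.0034 (reversed in sign) for MAP kinase inputs, 0.052 for promoter regulators, 0.023 for turnover regulators and 0.0011 for AP-1 targets, with 1 MAP kinase gene and 2 promoter regulators higher, and 3 MAP kinase genes and 1 turnover regulator lower. Equal sums gave medians of 0.029 for MAP kinase inputs, 0.084 for promoter regulators and 0.033 for targets, with 4 MAP kinase genes and 9 promoter regulators higher and 1 target lower. With no filter the medians were 0.099 for partners and 0.010 for targets, with 1 MAP kinase gene and 2 promoter regulators higher and 1 target lower. The filter at 50 gave medians of 0.15 for partners, 0.010 for targets and 0.17 for other immediate early genes. The causes were not tested.

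Leaving out 1 library gave medians of 0.12 to 0.16 for partners, 0.044 to 0.070 for promoter regulators, 0.020 to 0.082 for turnover regulators, 0.012 to 0.031 for targets and 0.12 to 0.17 for other immediate early genes. It gave 1 to 3 MAP kinase genes higher and 0 to 2 lower, 1 to 7 promoter regulators higher and 0 to 2 lower, 0 to 1 turnover regulators lower and 0 to 3 targets lower. Among 29 genes named from the lists, 40 values lost the call (those of Mapk8, Mapk14, Mef2c, Crebbp, Mkl1, Crtc2, Cd44, Bcl2l11 and Pdyn), 4 gained one (Srf and Fbxw7) and 303 did neither. Creb1, which did not pass, changed sign without microglial replicate 2 (0.00098; -0.055 to 0.00098 over the 6 libraries left out in turn).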
